A study of Danio rerio with 18 samples.

Results

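The genes h2ax2 (ENSDARG00000086552), hist1h2a4 (ENSDARG00000051736) and hist1h2a11 (ENSDARG00000088686) encode forms of histone H2A in zebrafish, and they are 3 of the 33737 genes counted in each library. They were chosen by measured values: their read counts were high in RNA recovered with the m6A reader Ythdf2 relative to the control input. That difference therefore describes them and is given without a test. The comparisons that did not choose them are the methyltransferase knockdown in the inputs, the m6A pulldown against its input, and the endothelial libraries.

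Histone H2A is a core protein of the nucleosome, the spool on which DNA is wound. Most animal genes for core histones are transcribed during S phase, and their messages end in a conserved stem-loop bound by SLBP instead of a poly(A) tail. Messages for replacement histones, such as H3.3 and H2A.Z, carry an ordinary poly(A) tail and are made throughout the cell cycle. H2A.X is the H2A form that is phosphorylated beside DNA breaks, and in mammals its message occurs both with the stem-loop and with a poly(A) tail. The RefSeq gene table (assembly GRCz12tu) lists h2afx2 as a synonym of h2ax2 and h2ax3 as a synonym of hist1h2a11, so both carry H2A.X-type names. N6-methyladenosine (m6A) is written on messenger RNA by the Mettl3 complex, and Ythdf2 binds it and promotes decay of the bound RNA.

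All samples carry the tissue label trunk and an age of 28 hours post-fertilization (zebrafish). The 16 count libraries formed 8 groups of 2. In MeRIP-seq, messenger RNA was sequenced unselected (input) and after pulldown of sonicated RNA with an m6A antibody from Synaptic Systems (IP), from embryos labelled normal and from mettl3 morphants, in which a morpholino targets that gene. Ythdf2 RIP came from otherwise normal embryos given ythdf2-Flag mRNA by injection, and its protocol names embryos without naming a dissection. Endothelial cells, which line blood vessels, came from 3 kinds of embryo: control, ythdf2 morphant and mettl3 morphant. MeRIP libraries were made from isolated mRNA, whereas the RIP and endothelial protocols name RNA. No RIP input and no mock pulldown was analysed here, so pulldown, RNA selection and injection cannot be told apart in any RIP value. Whether the replicates are separate clutches is not labelled, so the spread behind each p-value may be technical.

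Counts on genes were 32.8 to 78.3 M in the MeRIP libraries, 7.90 and 5.27 M in RIP, and 3.57 to 4.75 M in the endothelial libraries. Reads outside annotated genes made up 42.9% and 43.8% in RIP against 9.07% to 13.5% elsewhere. METTL3 had 35.8 and 19.6 CPM (counts per 1000000 counts on genes) in the control inputs and 15.7 and 48.2 in the libraries labelled mettl3 morphant. It was thus lower with that label in replicate 1 and higher in replicate 2. How the morpholino acts is not given, so these values do not check the labels. The paired endothelial columns differed by little more than counting noise, with a chi-square per degree of freedom of 1.04, 1.01 and 1.04 against 59.4 to 338 in the other pairs, and each pair was counted as 1 sample. H2A genes are near-identical copies, reads that fit several places are listed as 0 in every table, and no source used here gives the strand setting. Counts of single copies are therefore uncertain.

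All 3 genes were rare in the trunk inputs and abundant in Ythdf2 RIP. For h2ax2 the CPM were 0.647 and 0.470 in the control inputs and 209 and 48.5 in RIP, from 37, 32, 1651 and 256 counts. For hist1h2a4 the CPM were 0.332 and 0.294 in the control inputs and 75.7 and 29.96 in RIP, from 19, 20, 598 and 158 counts. For hist1h2a11 the CPM were 0.734 and 0.235 in the control inputs and 139 and 27.1 in RIP, from 42, 16, 1096 and 143 counts. Both RIP libraries lay above every other library for each gene.

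In the TMM-scaled edgeR fit the RIP level exceeded the control input by 9.78 on the log2 scale for h2ax2 (SE 1.11), 9.33 for hist1h2a4 (SE 0.84) and 9.33 for hist1h2a11 (SE 1.27). These were places 76, 100 and 101 among 21005 genes ordered by that difference. Over all genes tested, 7.15% were called higher in RIP and 6.56% lower (adjusted p below 0.05), which is background only, because this contrast chose the genes. Scaling by total gene counts instead of TMM put the median gene at −2.11 instead of −0.19, and the differences became 7.85, 7.39 and 7.43. With that scaling 407 genes (1.94%) were called higher and 14315 (68.2%) lower, against 1502 and 1378 with TMM.

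The RIP libraries differed in how much they held. RIP 1 exceeded RIP 2 by 4.30-fold in CPM for h2ax2, 2.53-fold for hist1h2a4 and 5.11-fold for hist1h2a11, while the median ratio over 18230 genes with counts in both was 1.03. Without RIP 1 the log2 difference from control input was 8.17 for h2ax2, 8.31 for hist1h2a4 and 7.56 for hist1h2a11. The other histone genes high in RIP leaned the same way, with 3.10-fold for h2ax, 3.04-fold for hist1h2a3, 2.95-fold for hist2h3c and 2.50-fold for h3c13a. The gene h2ax1 leaned the other way, at 0.584-fold.

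**Figure D1:**
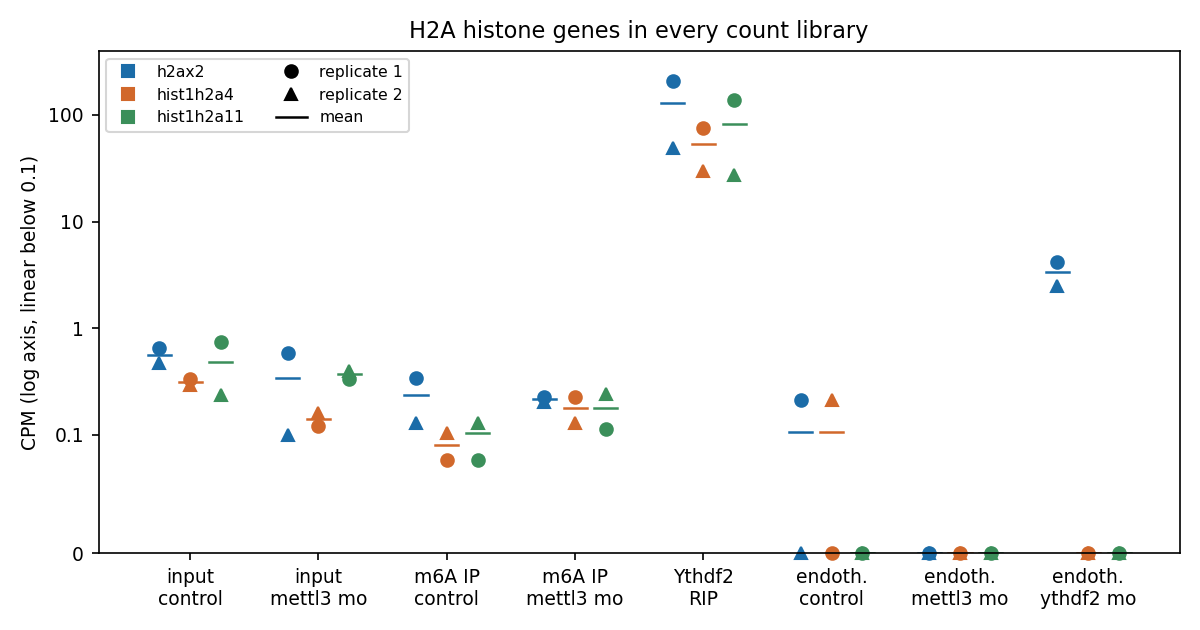
CPM of h2ax2, hist1h2a4 and hist1h2a11 in each of the 16 count libraries, on an axis that is logarithmic above 0.1 and linear below; circles and triangles are replicates 1 and 2, and lines are means of 2. RIP libraries lie between 27.1 and 209 CPM, all MeRIP libraries lie below 1 CPM, and h2ax2 in the ythdf2 morphant endothelial columns lies at 2.51 and 4.21 CPM.

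Ordered by mean CPM, h2ax2 was highest in RIP, then in ythdf2 morphant endothelial cells, and then in control input, and neither of those neighbouring pairs overlapped. Its lower groups, from control input down through morphant input, control IP, morphant IP and control endothelial cells to mettl3 morphant endothelial cells, each overlapped the next. For hist1h2a4 the order began with RIP and control input, and control input did not overlap the third group, morphant IP. Morphant IP overlapped morphant input, control endothelial cells and then control IP followed, and both morphant endothelial groups were at 0 counts. For hist1h2a11 RIP was followed by control input and morphant input, which overlapped. Morphant input did not overlap morphant IP, which overlapped control IP, and all endothelial groups were at 0 counts. How many of all genes separate in this way was not counted, so a lack of overlap is description only.

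The H2A list held 6 genes with such a name, and h2ax2, hist1h2a4 and hist1h2a11 made up 57.1% of its counts in RIP 1 (95% Wilson interval 55.8% to 58.3%) and 42.6% in RIP 2 (39.9% to 45.2%). Their part was 1.25% and 0.616% in the control inputs and 0.683% and 0.427% in the morphant inputs. In the IPs it was 0.368% and 0.224% for control and 0.350% and 0.317% for morphant. The trio was chosen for RIP counts high over control input, so its larger share in RIP follows from that choice and is no separate evidence. Shares are of counts, with no correction for gene length, and intervals cover counting error only. The gene h2ax1 held 91.2% to 92.4% of the list's counts in the inputs and 3.82% and 19.6% in RIP.

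**Figure D2:**
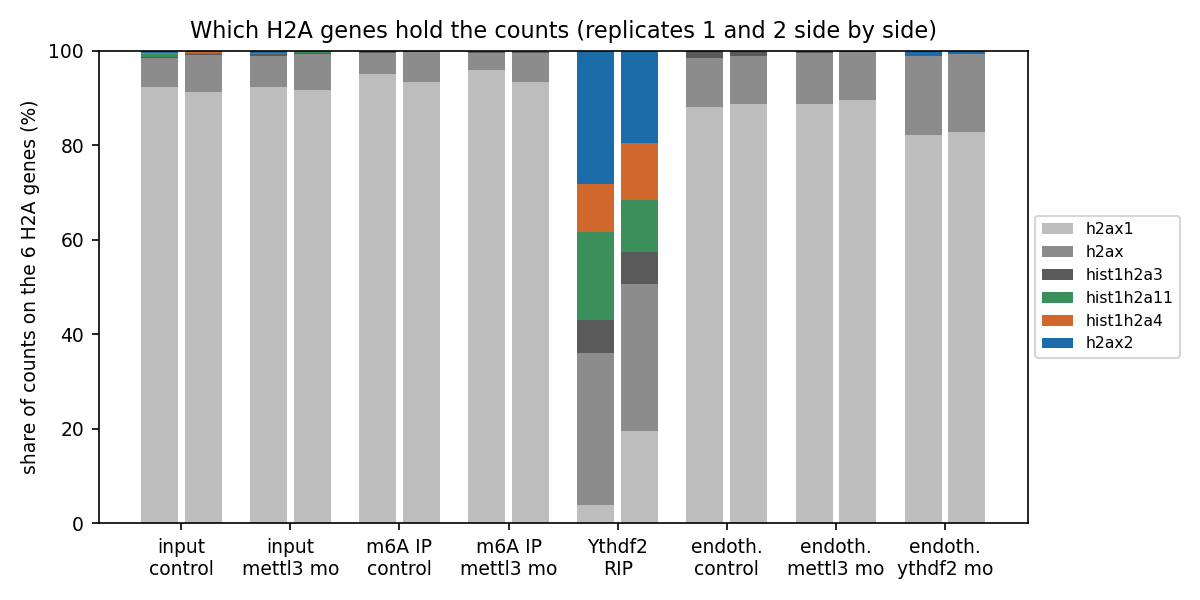
Share of the counts on the 6 genes of the H2A list that fell on each gene, in percent, for every library; replicates 1 and 2 of a group stand side by side. The coloured segments of h2ax2, hist1h2a4 and hist1h2a11 reach 57.1% and 42.6% in RIP and stay at 1.25% or below elsewhere.

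Within the trio the makeup of the RIP libraries was partly alike. The gene h2ax2 took 49.4% (47.7% to 51.1%) of the trio's counts in RIP 1 and 46.0% (41.9% to 50.1%) in RIP 2. For hist1h2a4 the part was 17.9% (16.6% to 19.2%) and 28.4% (24.8% to 32.2%), and for hist1h2a11 it was 32.8% (31.2% to 34.4%) and 25.7% (22.2% to 29.5%). The intervals overlapped for h2ax2 and did not for the other two. In the control inputs, with 98 and 68 counts on the trio, h2ax2 took 37.8% and 47.1%, hist1h2a4 19.4% and 29.4%, and hist1h2a11 42.9% and 23.5%.

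Outside the trio, 2 of 3 core H2A genes and 2 of 2 core H3 genes were called higher in RIP than in control input. Over all genes tested, 7.15% were called higher. These calls use the RIP libraries that chose the trio, and copies of H2A share sequence, so they are no separate evidence. The 3 other H2A genes had a median log2 difference of 5.88 against −0.19 over all genes. The gene hist1h2a3, a further core H2A gene, had 0.454 and 0.426 CPM in the control inputs and 51.4 and 16.9 in RIP (log2 difference 8.22, edgeR adjusted p = 0.00505). The H2A.X gene h2ax had 8.27 and 12.8 CPM in the control inputs and 239 and 77.2 in RIP (5.88, edgeR adjusted p = 0.0139). The RIP libraries lay above the control inputs for both genes.

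A different pattern was seen for h2ax1, which had 127 and 148 CPM in the control inputs and 28.3 and 48.5 in RIP. Its log2 difference was 0.07 with TMM scaling (edgeR adjusted p = 0.931) and −1.84 with total counts (edgeR adjusted p = 0.0127), so its direction depends on the scaling. Core histone H3 genes were called higher in 2 of 2 cases under either scaling. The gene hist2h3c had 3.81 and 4.32 CPM in the control inputs and 405 and 137 in RIP (log2 difference 8.01, edgeR adjusted p = 0.00714). For h3c13a the values were 2.34 and 2.79 CPM against 126 and 50.3 (7.05, edgeR adjusted p = 0.00647).

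Of the 8 replacement histone genes, 0 were called higher and 1 lower by edgeR with TMM (median −1.77), and 7 were called lower with total counts, a scaling under which 68.2% of all genes were. DESeq2 called 0 higher and 5 lower, and over all genes it called 5047 in either direction. That total was not split by direction, so the DESeq2 count for this list has no share beside it and is description only. The number that edgeR called higher changed without RIP 1, in a fit with 1 RIP library. The H3.3-type gene h3f3d had a log2 difference of −2.78 (edgeR adjusted p = 0.0484), h3f3a −2.09 (0.0887) and h3f3b.1 −2.12 (0.0650). Among the linker histones, which bind DNA between nucleosomes, histh1l1 had 2.96 (edgeR adjusted p = 0.0363), which became 1.05 (0.185) with total counts, and H1-10, counted in both lists, had −0.06. No H4 gene matched a name rule, and the sole H2B match, H2BK1, did not pass the filter on low counts, with 4 and 3 counts in the control inputs and 0 in both RIP libraries. The number of H3 and linker genes called higher stayed the same without either RIP library in turn, in fits with 1 RIP library.

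**Figure D3:**
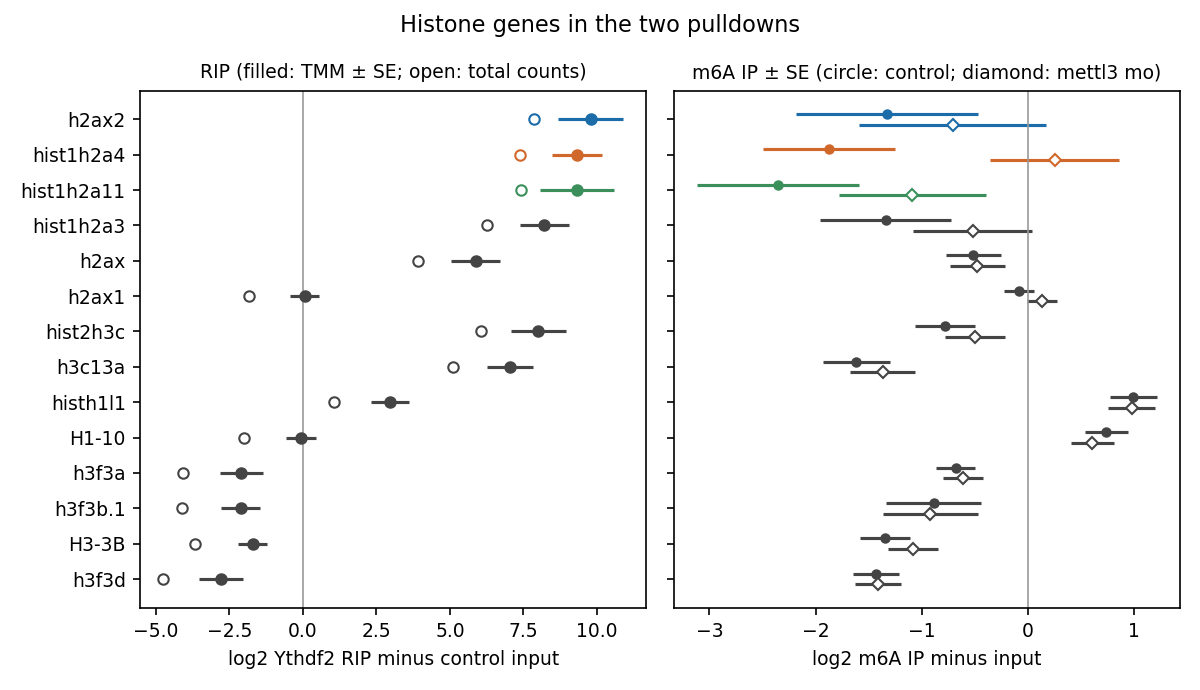
Log2 differences of 14 histone genes in the pulldowns; left, Ythdf2 RIP minus control input with TMM scaling (filled, ± SE) and with total counts (open); right, m6A IP minus input for libraries labelled control (circles) and mettl3 morphant (diamonds), ± SE. Left, the chosen trio lies at 9.33 to 9.78 and the H3.3-type genes lie at or below −1.70; right, the trio lies between −2.36 and 0.25.

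Genes of DNA replication did not share the level of the histone trio in RIP. The summed level of 10 S-phase genes was 117 and 213 CPM in RIP, against 833 to 1241 CPM in the control inputs. Of these 10 genes, 0 were called higher in RIP and 2 lower by edgeR with TMM (median −0.73), and all 10 lower with total counts, where 68.2% of all genes were. GINS2, a subunit of the replicative helicase, had −4.03 (edgeR adjusted p = 0.0276), the lowest of the 10. It rests on 2 counts summed over RIP against 1215 over the control inputs. Of 15 tested genes for histone message processing and the histone locus body, 0 passed edgeR's test in either direction with TMM (median 0.55), 4 had an unadjusted p under 0.05, and DESeq2 called 3 higher and 1 lower. With total counts 8 of the 15 were called lower and 0 higher, and their median was −1.40, so the direction depends on the scaling. Over all 21005 genes tested by edgeR, 7644 had an unadjusted p under 0.05, and DESeq2 called 5047 genes in either direction. The DESeq2 total was not split by direction, so its calls for the processing genes are description only. The number of processing genes that edgeR called higher rose above 0 when either RIP library was left out, in fits with 1 RIP library. The count of 0 thus depends on which RIP libraries are fitted.

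Against the m6A IP of control embryos, the RIP level stood higher again, by 11.11 for h2ax2, 11.19 for hist1h2a4 and 11.67 for hist1h2a11 on the log2 scale. These were places 65, 63 and 42 of 20171 genes, of which 4.54% were called higher and 2.86% lower. The RIP libraries are the same as in the input contrast, so these values are no separate evidence. With total counts they became 9.07, 9.10 and 9.57.

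In the m6A pulldown of control embryos the trio was lower in IP than in input, and 1 of the 3 passed the test. All 3 genes passed the filter on low counts, and over all 23163 genes tested 14.6% were called lower and 13.7% higher. For hist1h2a11 the control IPs had 0.0790 and 0.129 CPM (3 and 5 counts) against 0.734 and 0.235 CPM in the inputs. It fell by 2.36 on the log2 scale (SE 0.76, n = 2 per group, edgeR quasi-likelihood adjusted p = 0.0492). For hist1h2a4 the IPs had 0.0790 and 0.103 CPM (3 and 4 counts) against 0.332 and 0.294 CPM, and the difference was −1.87 (SE 0.63, edgeR adjusted p = 0.0545). For h2ax2 the IPs had 0.342 and 0.129 CPM (13 and 5 counts) against 0.647 and 0.470 CPM, and the difference was −1.32 (SE 0.86, edgeR adjusted p = 0.274).

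Both replicate numbers gave a negative difference for each gene, by −3.22 and −0.87 for hist1h2a11, −2.07 and −1.51 for hist1h2a4, and −0.92 and −1.87 for h2ax2. The call for hist1h2a11 rests on 8 IP counts and was lost with the replicate number as a block (−2.14, adjusted p = 0.0512), with DESeq2 (adjusted p = 0.0545), with total counts (0.0802) and in 7 of 8 fits without a library, where control input 1 mattered most (−1.16, adjusted p = 0.349 without it). Over all alternatives its adjusted p ran from 0.0379 to 0.349.

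Other histone genes in the control IP moved in different directions. The remaining H2A genes had −1.34 for hist1h2a3 (SE 0.62, edgeR adjusted p = 0.137), −0.51 for h2ax (SE 0.26, 0.173) and −0.09 for h2ax1. With the trio, 1 of 6 H2A genes was called lower, which is near the share over all genes. Over all genes 14.6% were called lower and 13.7% higher. The median of the 6 was −1.33 against −0.03 over all genes. With total counts, and with DESeq2, 0 of 6 were called. The core H3 gene h3c13a fell by 1.61 in the control IP (SE 0.32, edgeR adjusted p = 0.00818), and hist2h3c had −0.78 (0.0703). Of 8 replacement genes 2 rose and 3 fell in that IP, among them h3f3d, which fell by 1.43 (edgeR adjusted p = 0.00391). Linker histones rose in 2 of 2 cases, by 0.99 for histh1l1 and 0.74 for H1-10.

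In the libraries labelled mettl3 morphant, 0 of the 3 genes differed between IP and input by edgeR, where 13.2% of all genes were called lower and 13.1% higher. None of them had an unadjusted p under 0.05 there or was called by DESeq2. The CPM of hist1h2a11 were 0.114 and 0.243 in IP against 0.335 and 0.400 in input (−1.09, SE 0.69, edgeR adjusted p = 0.275). The CPM of hist1h2a4 were 0.228 and 0.128 in IP against 0.122 and 0.160 in input (0.25, SE 0.61, adjusted p = 0.839), and the groups overlapped. The CPM of h2ax2 were 0.228 and 0.204 in IP against 0.579 and 0.09997 in input (−0.71, SE 0.88, adjusted p = 0.582), also overlapping. The replicates pointed in opposite directions for h2ax2 (−1.35 and 1.03) and for hist1h2a4 (0.90 and −0.32). The sign reversed without morphant input 1 for h2ax2 (1.17) and without morphant IP 1 for hist1h2a4 (−0.30).

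The change of the IP-to-input difference between the labels was tested as an interaction. It was 2.13 for hist1h2a4 (SE 0.88, edgeR unadjusted p = 0.0395), 1.27 for hist1h2a11 (SE 1.04) and 0.61 for h2ax2 (SE 1.23), and no adjusted p was below 0.99. Of 23163 genes 0 were called by edgeR (0.00% in each direction), 84 reached an unadjusted p under 0.05, and 1 was called by DESeq2. For h2ax2 the sign turned without morphant input 2 (−0.32) and without control IP 2 (−0.07). Each IP group rests on 7 to 28 counts per gene, and these changes were not detectable at this depth.

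**Figure D4:**
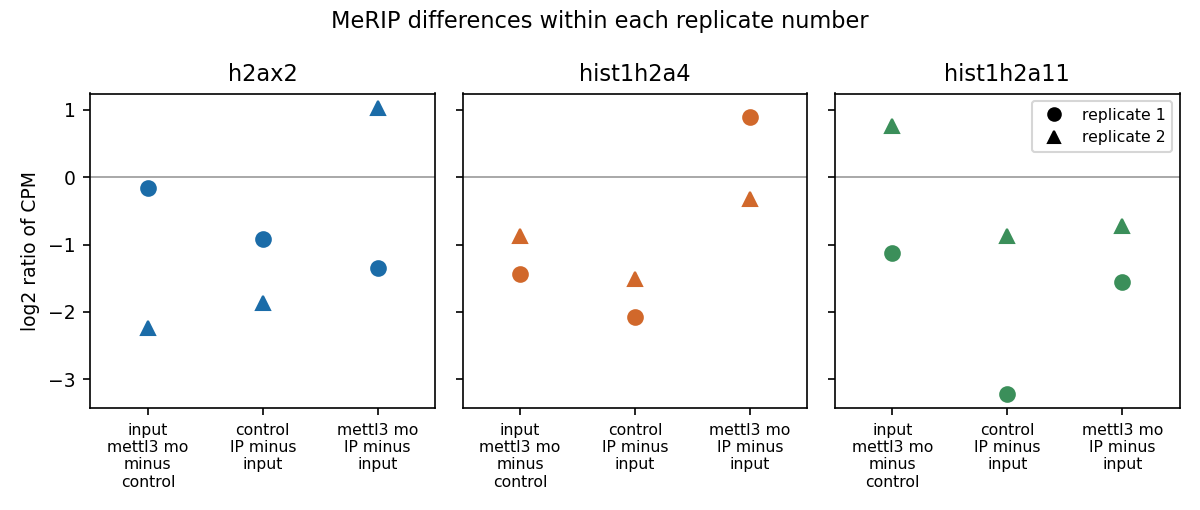
Log2 ratios of CPM within replicate 1 (circles) and replicate 2 (triangles) for each gene: morphant input minus control input, control IP minus control input, and morphant IP minus morphant input. The control IP differences are all below 0, from −3.22 to −0.87, while the other differences fall on both sides of 0.

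Between the inputs, 0 of the 3 genes differed with the mettl3 label by edgeR or DESeq2, and 0 had an unadjusted p under 0.05. For hist1h2a4 the morphant inputs had 0.122 and 0.160 CPM (4 and 8 counts) against 0.332 and 0.294 in the control inputs. The log2 difference was −1.15 (SE 0.56, edgeR unadjusted p = 0.0837, adjusted p = 0.9999). For h2ax2 the morphant inputs had 0.579 and 0.09997 CPM (19 and 5 counts), and the difference was −0.74 (SE 0.86). For hist1h2a11 they had 0.335 and 0.400 CPM (11 and 20 counts), and the difference was −0.45 (SE 0.70). Both overlapped the control inputs.

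Over all 22561 genes tested in the inputs, 0 were called by edgeR (0.00% in each direction), 290 reached an unadjusted p under 0.05, and 2 were called by DESeq2. The sign turned for h2ax2 without morphant input 2 (0.18) and for hist1h2a11 without control input 1 (0.75). No gene of the H2A, H3, linker, replacement, processing or S-phase lists was called between the inputs by edgeR or DESeq2, or had an unadjusted p under 0.05 in edgeR. In whole trunk, fewer cells of a type and less RNA per cell cannot be told apart.

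In endothelial cells the trio was almost absent, except for h2ax2 in the ythdf2 morphant. The gene h2ax2 had 15 and 9 counts (4.21 and 2.51 CPM) in the ythdf2 morphant columns, 1 and 0 counts in the control columns and 0 in both mettl3 morphant columns. As 1 sample per group there is no test. Summed, 24 counts against 1 gave a log2 ratio of 4.79 with a 95% exact interval of 2.17 to 10.15, which covers counting error only. With the replicate 2 columns alone, where the control had 0 counts, the ratio was 1.77 on the log2 scale with a floor of 3 counts put for 0.

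Of 13933 genes with at least 20 counts in a pool, 21.0% were past 2-fold higher in the ythdf2 morphant than in control and 31.9% past 2-fold lower. The filter passed h2ax2 through that group alone. In the same pools the summed S-phase level was 1798 to 1839 CPM in the ythdf2 morphant, 1964 to 1988 in control and 2387 to 2411 in the mettl3 morphant. Skeletal muscle markers (4 of 8 found) summed to 16589 to 16964 CPM in control, 4116 to 4243 in the ythdf2 morphant and 1269 to 1295 in the mettl3 morphant. Endothelial markers (6 of 12 found) summed to 146 to 151, 400 to 409 and 599 to 620 CPM in that order, with vwf at 0 in the mettl3 morphant. The part of these differences in the h2ax2 value was not tested. YTHDF2 itself had 22.7 and 29.3 CPM in the ythdf2 morphant against 5.69 and 9.20 in control, and METTL3 had 137 and 143 CPM in the mettl3 morphant against 20.2 and 18.8. Both targeted transcripts were thus higher in the pools labelled as their morphants, and no source used here says how the morpholinos act.

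The gene hist1h2a4 had 0 and 1 counts in the control endothelial columns and 0 in the morphants, and hist1h2a11 had 0 counts in all 6 columns. A count of 0 over a pool has an exact upper limit of 0.392 CPM in control. In the morphants this limit was 0.468 (mettl3) and 0.516 CPM (ythdf2). For hist1h2a4, with 1 count in the control pool, the limit there was 0.591 CPM. The trunk control inputs held 0.311 CPM of hist1h2a4 and 0.463 of hist1h2a11 when summed. The hist1h2a4 level lay below the limit in every pool, so a difference from trunk was not detectable at this depth. The hist1h2a11 level lay below the morphant limits. It lay above the control limit, but its own interval (0.352 to 0.599 CPM) reached below that limit. No fold is given for these genes.

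The other H2A genes had counts in all 3 endothelial groups, except hist1h2a3 in the ythdf2 morphant. The counts of h2ax1 summed to 2899 in control, 4326 in the mettl3 morphant and 2402 in the ythdf2 morphant, and those of h2ax to 335, 512 and 485. The pools differ in depth, and in that order h2ax1 had 308, 548 and 336 CPM and h2ax 35.6, 64.9 and 67.8 CPM. For h2ax1 the log2 ratio to control was 0.56 (interval 0.50 to 0.63) in the mettl3 morphant and −0.07 (−0.15 to 0.01) in the ythdf2 morphant. For h2ax these were 0.60 (0.40 to 0.80) and 0.73 (0.53 to 0.94). For hist1h2a3 the sums were 42, 19 and 0. Its ratio to control was −1.16 on the log2 scale in the mettl3 morphant (interval −2.02 to −0.34). In the ythdf2 morphant the ratio was −3.61 with a floor of 3 counts put for 0, and its exact upper limit was −3.24. The filter of 20 counts passed hist1h2a3 through control alone. In the mettl3 pool 19.2% of genes were past 2-fold higher and 31.0% past 2-fold lower.

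The genes most like the trio were ranked by Pearson correlation of log2(CPM + 1) with the trio's mean over 13 points, the 10 embryo and RIP libraries and 3 endothelial pools. Only genes with a symbol and a mean of at least 1 CPM over these points were ranked. Of 14311 such genes, zgc:173552 (0.998), the small nucleolar RNA SNORA62 (0.992), si:ch211-113a14.28 (0.991), si:ch211-113a14.29 (0.9898) and si:ch211-113a14.11 (0.989) came first. Outside RIP, zgc:173552 and SNORA62 lay below 1 CPM at every point. They thus passed the filter only through the RIP libraries that chose the trio, and the order is no separate evidence. The points share the 2 RIP libraries as extremes, and without them the same correlations were 0.75, 0.18, 0.33, 0.31 and 0.15 over 11 points. Among themselves h2ax2 and hist1h2a4 had 0.970, h2ax2 and hist1h2a11 0.968, and hist1h2a4 and hist1h2a11 0.994. Without RIP these became −0.19, −0.06 and 0.74, at counts of 42 or fewer.

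Position was read only as neighbourhood, from the RefSeq gene table (GRCz12tu). Within 8 genes on each side, h2ax2 had the histone-named neighbour hist1h2a6, hist1h2a11 had hist1h2a7, and hist1h2a4 had hist1h2a3. Of the 16 neighbours of hist1h2a4, 6 could be matched to the count tables by name, and 3 of these were called higher in RIP, against 7.15% of all genes. They were zgc:173552 (log2 difference 9.93, edgeR adjusted p = 0.00505), hist1h2a3 (8.22) and zgc:110216 (6.03, adjusted p = 0.0238). Of these, hist1h2a3 was already counted in the H2A list, and zgc:173552 came first in the correlation ranking above. The calls use the RIP libraries that chose the trio, so they are no separate evidence. The neighbours si:ch211-113a14.18 (5.60, adjusted p = 0.0535), bmb (−0.02) and FAAP24 (−1.82) were not called. Only 1 of the 16 neighbours of hist1h2a11 could be matched, si:dkey-23a13.11 (0.07, not called), and 0 of the 16 neighbours of h2ax2. For zgc:173552 the control inputs had 0.384 and 0.191 CPM and the RIP libraries 112 and 37.7. In the control m6A IP it had a log2 difference of −0.22 (edgeR adjusted p = 0.861). None of the 6 neighbours was called there, where 14.6% of all genes were called lower and 13.7% higher.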

How the data were processed

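RNA counts per gene were deposited by the authors as raw counts for 33737 Ensembl gene IDs in 16 libraries, made with TopHat2 2.0.9 and HTSeq per the submitters' processing notes. No source used here gives the annotation release, the strand setting or the treatment of reads that fit several genes. Paired reads were 151 bases long in replicate 1 of MeRIP and 101 elsewhere, per the labels. The deposited m6A peak, Ythdf2 region and miCLIP site lists name no genes and were not used here.

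The genes, the lists and most tests were chosen with earlier results of these data known. Named genes were the chosen 3, the 4 highest of each list and up to 3 that passed the test. Symbols covered 21939 IDs. A gene of the replacement histone list is not reported here by name. edgeR 4.0.16 (R 4.3.3; quasi-likelihood test, TMM scaling, filterByExpr; calls at a Benjamini-Hochberg adjusted p under 0.05) was fitted to 4 inputs, to 8 MeRIP libraries with the interaction, and to 4 libraries for each RIP contrast. DESeq2 1.42.0, total counts, no filter, a replicate block and leaving out each library were alternatives. The code was tested on simulated data. Endothelial columns were planned as replicates but summed after their chi-square was seen. Their ratios have 95% exact binomial intervals, or a floor of 3 counts at 0. Same-numbered input and IP deviated together, with correlations of 0.600 (control) and 0.385 (morphant) over 18013 genes. The control and morphant inputs, from different embryos, did so too (0.421), and control input and RIP had −0.01. The read length separates the same numbers, so these values do not show that the numbers pair input with IP.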

Additional observations from a re-analysis of the deposited data

How the results depend on the processing

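Limits first: the 3 genes held 3 to 42 counts in each MeRIP library, RIP had no input of its own, and copies of H2A share sequence, so single-library changes move the values widely. The cause of each change below was not tested. Signs reversed for the morphant-minus-control input difference of h2ax2 without morphant input 2 (0.18) and hist1h2a11 without control input 1 (0.75), for the morphant IP-minus-input difference of h2ax2 without morphant input 1 (1.17) and hist1h2a4 without morphant IP 1 (−0.30), and for the interaction of h2ax2 without morphant input 2 (−0.32) or control IP 2 (−0.07). Over fits without 1 library these ran, in that order, from −2.62 to 0.18, −1.13 to 0.75, −1.62 to 1.17, −0.30 to 0.74 and −0.32 to 2.50. The control IP-minus-input difference of hist1h2a11 was no longer called with DESeq2 (−2.36), total counts (−2.18) or the replicate block (−2.14), and ran from −2.997 to −1.16 over fits without 1 library. The replicate block changed no other call of the 3 genes. It called 5 genes between inputs (0 without it), 9431 for control IP (6555), 8953 for morphant IP (6086) and 1 for the interaction (0). Genes called between inputs were 2 with DESeq2, 26 with total counts, 2 with no filter and 0 to 5 without 1 library. For control IP 2415 were called with total counts and 2047 to 6782 without 1 library, for morphant IP 1727 and 2953 to 5577, and for the interaction 1 with DESeq2. With total counts RIP minus control input was 7.85 for h2ax2 and 7.39 for hist1h2a4, and RIP minus control IP was 9.07, 9.10 and 9.57 for h2ax2, hist1h2a4 and hist1h2a11. Over morphant inputs hist1h2a4 had 10.48. Without 1 library RIP minus control input ran from 8.17 to 10.46, 8.31 to 9.84 and 7.56 to 10.60 for these genes, and RIP minus control IP from 9.62 to 12.20, 10.26 to 11.69 and 9.93 to 12.39. The endothelial ratio of h2ax2 was 1.77 in the replicate 2 columns, with 3 counts put for the 0 of control. Of the 5 genes most like the 3 histone genes, 1 was kept by Spearman correlation and 0 without RIP. Leaving out a RIP library was added for the list counts after seeing the data.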

Other observations

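Other histone genes were also counted in the endothelial pools, where no test was possible. Of 13933 genes with at least 20 counts in a pool, 19.2% were past 2-fold higher in the mettl3 morphant and 31.0% lower. In the ythdf2 morphant these shares were 21.0% and 31.9%. The filter passed hist2h3c through the mettl3 morphant alone. Counts of hist2h3c, a core H3 gene, summed to 4 in control, 22 in the mettl3 morphant and 0 in the ythdf2 morphant, and the log2 ratio of the mettl3 morphant to control was 2.45 (95% exact interval 0.89 to 4.44). For h3c13a the sums were 46, 59 and 12, with a log2 ratio of −1.74 in the ythdf2 morphant (interval −2.79 to −0.80). The linker histone gene histh1l1 had 11445, 12946 and 10454 counts, and its log2 ratios were 0.16 and 0.07.

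Genes that act on histone messages were also measured in the m6A pulldown of control embryos, where 6 of 15 rose and 2 fell with TMM, and 2 rose and 0 fell with total counts. Over all genes 13.7% were called higher and 14.6% lower with TMM, and 6.62% and 3.81% with total counts. SRRT, a partner of the nuclear cap-binding complex, rose by 0.84 on the log2 scale (SE 0.14, edgeR adjusted p = 0.00512). The transcriptional coactivator npat, which marks the histone locus body, rose by 0.56 (SE 0.12, edgeR adjusted p = 0.0113). CPSF3, the endonuclease that cuts histone pre-mRNA, fell by 0.50 (SE 0.15, edgeR adjusted p = 0.0408). With total counts SRRT kept its call (0.94, edgeR adjusted p = 0.0398). The calls of npat (0.66, edgeR adjusted p = 0.104) and CPSF3 (−0.39, 0.386) were lost with that scaling.

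The gene h1l1, which no list held, was singled out after its values were seen, so no test is given. It lay at 2.62 to 22.9 CPM in the control inputs and at 287 to 844 CPM in RIP. Its log2 difference between RIP and control input was 7.32 (SE 1.41). The histone-named gene hist2h2l, also in no list, went the other way, with −1.13. It had 43.5 to 48.8 CPM in the control inputs and 4.93 to 6.07 CPM in RIP. With total counts the differences were 5.47 for h1l1 and −3.06 for hist2h2l.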
